A study of Mus musculus with 8 samples.

Results

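The 10 genes described here carry out calcium cycling in heart muscle cells: *Ryr2*, *Casq2*, *Casq1*, *Trdn* and *Jph2* for calcium release, *Atp2a2*, *Pln* and *Sln* for uptake, and *Cacna1c* and *Slc8a1* for traffic across the surface membrane. They were listed by name, and each was found once among the 54532 genes of the deposited table, so 10 of 10 members are present. The cells were MICFs, cardiac fibroblasts taken from the infarcted area of adult male C57BL/6 mice. All 8 libraries came from MICFs that carried doxycycline-inducible lentiviruses for *Mef2c*, *Gata4* and *Tbx5* on 1 construct (MGT), for *Myocd*, for *Sall4* and for eGFP, and the labels give all of them 1 genotype, MGTMyoS overexpression. For the *in vivo* samples these cells were injected into the left ventricle of mice whose coronary artery had been ligated, which drank doxycycline and received the immunosuppressants tacrolimus, methylprednisolone and mycophenolate mofetil. For the *in vitro* samples a share of the same infected cells stayed in culture with doxycycline, and the study's general reprogramming medium holds SB431542 and baricitinib as well. eGFP+ cells were sorted 7 and 14 days later (1 week and 2 weeks), which gave 4 groups of 2 libraries. No group without the factors was analysed here, so the comparisons are between the heart and the dish and between the weeks, and not against untreated fibroblasts. No label ties a replicate to an animal or a well, so p-values measure the spread between these samples, which may be technical.

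In a heart muscle cell, an action potential opens the L-type calcium channel (its pore is *Cacna1c*), and the entering calcium opens the ryanodine receptor *Ryr2*, which releases calcium from the sarcoplasmic reticulum (SR). Calsequestrin (*Casq2* in heart, *Casq1* mainly in skeletal muscle) stores calcium inside the SR, triadin (*Trdn*) ties it to the receptor, and junctophilin (*Jph2*) holds the SR membrane against the surface membrane. The pump SERCA2 (*Atp2a2*) then returns calcium to the SR under the restraint of the small membrane proteins phospholamban (*Pln*, typical of the ventricle) and sarcolipin (*Sln*, typical of the atria and of skeletal muscle), while the sodium-calcium exchanger *Slc8a1* moves the rest out of the cell. *Atp2a2* and *Slc8a1* are also expressed outside muscle.

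The 2 pump inhibitors lay farthest apart in the comparisons that follow, so their reading frames are shown, as spelled in the GENCODE vM21 transcripts. Each frame lies within 1 exon of a transcript with 2 exons. The frame of *Pln* is at chr10:53343864-53344022 (GRCm38, plus strand) and has 52 codons before the stop, and that of *Sln* is at chr9:53853473-53853568 (plus strand) and has 31. Capitals mark the start and stop codons.
Pln: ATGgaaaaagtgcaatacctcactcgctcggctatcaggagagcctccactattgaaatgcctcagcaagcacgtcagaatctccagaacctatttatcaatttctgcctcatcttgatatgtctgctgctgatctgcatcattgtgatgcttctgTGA
Sln: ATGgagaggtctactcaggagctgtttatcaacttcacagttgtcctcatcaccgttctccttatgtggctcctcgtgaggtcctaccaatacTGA

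The values are FPKM (fragment counts scaled to gene length and to library size) as deposited, which are per length and so can be compared between genes. From 12304242 to 14546904 fragments per library fell on genes, and 1 fragment on a gene of 1 kb was worth an FPKM of 0.0650 to 0.0905. Differences were tested by limma on log2(FPKM + 0.1) over the 15708 genes that reached an FPKM of 0.5 in 2 or more libraries. A gene is called higher or lower where the Benjamini-Hochberg adjusted p is under 0.01 and the absolute log2 fold change is over 1. Fold changes on this scale understate those of genes near or below 0.1 FPKM. All 10 members passed the filter, but *Pln* passed only through *in vivo* libraries, and *Sln*, *Trdn* and *Ryr2* only through *in vitro* libraries (*Ryr2* reached 0.5 in 1 *in vivo* library). The filter thus favoured a difference between the places for these 4, and counts and medians that include them are a description. The same holds for *Jph1* and *Ppp1r3a* among the other genes of calcium handling named below.

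At 1 week, *Pln* and *Slc8a1* were higher *in vivo* than *in vitro* and *Ryr2* and *Sln* were lower, so 2 of 10 members were called in each direction. Of all genes tested, 7.79% were called higher and 5.07% lower. At 2 weeks the same 4 genes were called in the same directions, and *Trdn* and *Jph2* were called lower as well, which made 2 higher and 4 lower against 9.02% and 8.05% of all genes tested. Over the 10 members the log2 fold changes had a median of -0.23 at 1 week and -0.54 at 2 weeks, and over all tested genes one of -0.0058 and -0.0034. The medians of the members include *Pln*, *Sln*, *Trdn* and *Ryr2*, for which the filter favoured a difference. They are a description, and no shift of the members as a set is read from them. In the FPKM as deposited, which contain a scaling between libraries, the *in vivo* and *in vitro* libraries of a week did not overlap for any member. Overlap without that scaling was not counted. At both weeks 4 members (*Pln*, *Casq1*, *Cacna1c* and *Slc8a1*) were above and 6 below, but the libraries of 36.2% of all tested genes at 1 week and 36.8% at 2 weeks were likewise wholly above, and 36.6% and 37.4% wholly below. In bulk samples such as these, fewer cells that express a gene and less of its RNA per cell cannot be told apart.

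**Figure D1:**
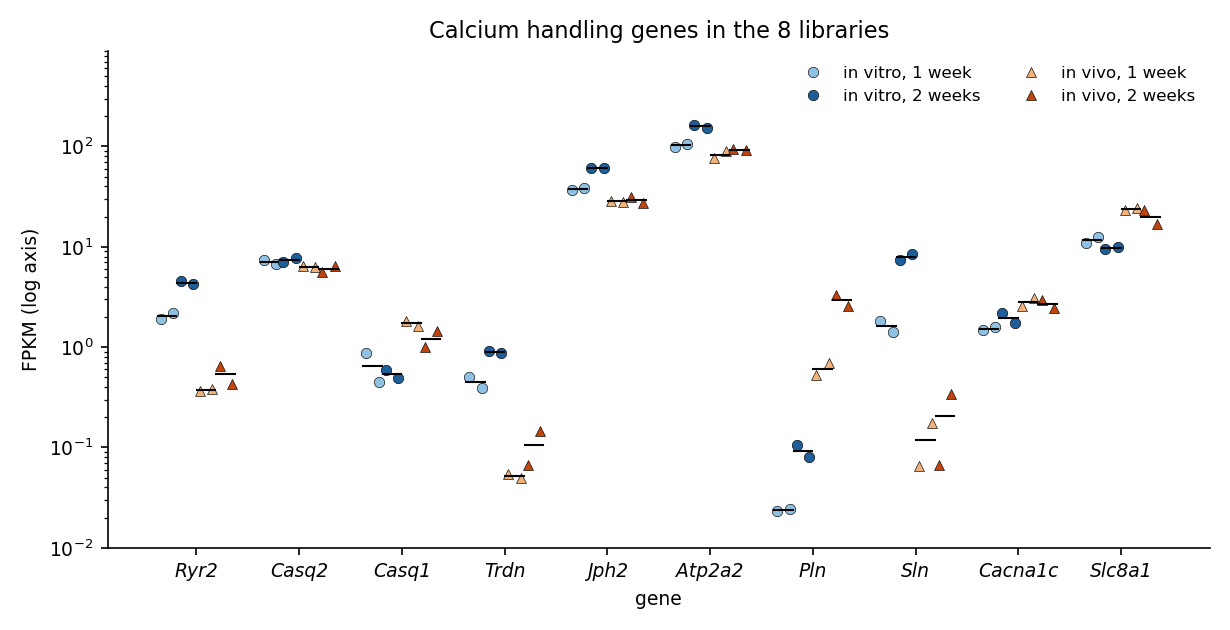
FPKM (log axis) of the 10 genes in each of the 8 libraries; circles are *in vitro* and triangles *in vivo* libraries, light at 1 week and dark at 2 weeks, and the black line is the mean of the 2 libraries of a group. *Atp2a2* is the most abundant member in all 4 groups, and *Pln* and *Sln* are placed in opposite order in the heart and in the dish.

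*Ryr2* (chr13:11553102-12106945, minus strand) encodes the release channel itself. Its FPKM was 0.365 and 0.379 *in vivo* against 1.92 and 2.19 *in vitro* at 1 week. At 2 weeks it was 0.649 and 0.431 *in vivo* against 4.56 and 4.22 *in vitro*. Every *in vitro* library was above every *in vivo* library at either week, and the levels *in vitro* at 2 weeks were the highest. Its log2 fold change, *in vivo* minus *in vitro*, was -2.19 (SE 0.21, limma Benjamini-Hochberg adjusted p = 0.000254) at 1 week and -2.83 (SE 0.21, adjusted p = 6.21e-05) at 2 weeks. This call held in all 19 alternative settings tried at each week. *Ryr2* was also the main ryanodine receptor in each library, with 83.2% to 95.5% of the summed FPKM of *Ryr1*, *Ryr2* and *Ryr3* in the group where its share was lowest, *in vivo* at 2 weeks. *Ryr1*, the receptor of skeletal muscle, stayed at an FPKM of 0.219 or less and was under the filter.

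Calsequestrin was measured from both of its genes. *Casq2* (chr3:102086415-102146514, plus strand) had an FPKM of 6.43 and 6.23 *in vivo* against 7.31 and 6.78 *in vitro* at 1 week, and 5.57 and 6.39 against 7.06 and 7.69 at 2 weeks. The *in vitro* libraries were above by small margins, with a log2 fold change of -0.15 (95% interval -0.38 to 0.08) at 1 week and -0.30 (-0.53 to -0.07) at 2 weeks, so a difference of 2-fold lay outside both intervals. *Casq1* (chr1:172209894-172219868, minus strand) was lower in level and lay the other way, at 1.84 and 1.61 *in vivo* against 0.866 and 0.446 *in vitro* at 1 week and 0.999 and 1.44 against 0.593 and 0.490 at 2 weeks. Its log2 fold change of 1.33 at 1 week (limma adjusted p = 0.0151) and 1.02 at 2 weeks (adjusted p = 0.0345) did not pass the threshold. By limma voom on the fragments recovered from the FPKM, *Casq1* was called higher *in vivo* at 1 week (1.42, adjusted p = 0.00901) but not at 2 weeks. *Casq2* made up 77.8% to 84.8% of the 2 calsequestrins' summed FPKM in the *in vivo* libraries and 89.4% to 94.0% in the *in vitro* libraries. Exons of *Casq1* share 156 bases with *Gm17224* on the other strand, and whether the counting used the strand is not given in the sources used here.

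*Trdn* (chr10:33080554-33476709, plus strand) was the least abundant member *in vivo*. Its FPKM was 0.0548 and 0.0492 *in vivo* against 0.507 and 0.394 *in vitro* at 1 week, and 0.0663 and 0.145 against 0.920 and 0.881 at 2 weeks. The *in vivo* values rest on 6 to 15 fragments per library and the *in vitro* values on 55 to 119. On the log2 scale the difference was -1.85 (SE 0.41) at 1 week, where the limma adjusted p of 0.0104 missed the threshold by little, and -2.31 (SE 0.41, adjusted p = 0.00327) at 2 weeks. The call at 2 weeks was lost without *in vivo* 2 weeks replicate 1 (adjusted p = 0.0148), without *in vitro* 2 weeks replicate 1 or 2 (0.0315 and 0.0314) and without *in vitro* 1 week replicate 1 (0.0103). With a pseudocount of 1 the log2 fold change was -0.78, under the fold threshold. By contrast, by limma voom on the fragments recovered from the FPKM *Trdn* was called lower at 1 week too (adjusted p = 0.000299, and 4.27e-05 at 2 weeks).

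*Jph2* (chr2:163336242-163397993, minus strand) was the second most abundant member in every group. It had an FPKM of 28.8 and 28.1 *in vivo* against 36.5 and 38.7 *in vitro* at 1 week, and 31.4 and 27.5 against 60.5 and 61.5 at 2 weeks. The *in vivo* libraries of both weeks lay within 27.5 and 31.4, while the *in vitro* libraries were farther above them at 2 weeks. The log2 fold change was -0.40 (SE 0.08, limma adjusted p = 0.00515) at 1 week, under the fold threshold, and -1.05 (SE 0.08, adjusted p = 5.15e-05) at 2 weeks. It fell below the fold threshold, at -0.96, without *in vivo* 2 weeks replicate 2. *Jph2* made up at least 96.6% of the summed FPKM of *Jph2* and *Jph1*, its relative in skeletal muscle, in each library.

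The pump *Atp2a2* (chr5:122453513-122502225, minus strand) was the most abundant of the 10 genes in all 4 groups. Its FPKM was 76.1 and 89.9 *in vivo* against 98.5 and 107 *in vitro* at 1 week, and 93.9 and 91.9 against 164 and 154 at 2 weeks. The *in vivo* libraries were below the *in vitro* libraries by less than 2-fold, with a log2 fold change of -0.31 (SE 0.09, limma adjusted p = 0.0295) at 1 week and -0.77 (SE 0.09, adjusted p = 0.000483) at 2 weeks, so the gene was not called. On FPKM recomputed without the scaling between libraries that the deposited values contain, the value at 2 weeks was -1.10 and passed. *Atp2a2* held 96.2% to 99.2% of the summed FPKM of the 3 SERCA genes in every library.

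*Pln* (chr10:53337667-53345987, plus strand) was higher in the heart. Its FPKM was 0.526 and 0.696 *in vivo* against 0.0235 and 0.0243 *in vitro* at 1 week. At 2 weeks it was 3.31 and 2.56 *in vivo* against 0.105 and 0.0800 *in vitro*. The *in vitro* values are 1 fragment in each library at 1 week and 4 and 3 fragments at 2 weeks, against 17 to 103 fragments per library *in vivo*. On the log2 scale the difference was 2.51 (SE 0.33, limma adjusted p = 0.00115) at 1 week and 3.97 (SE 0.33, adjusted p = 0.000109) at 2 weeks. The call at 1 week was lost without *in vivo* 1 week replicate 2 (adjusted p = 0.0116), with only the 4 libraries of that week in the fit (0.0127), and with a pseudocount of 1, where the log2 fold change was 0.65. As a ratio of summed fragments over library size, *Pln* was 25.7 times as high *in vivo* at 1 week (exact 95% interval 6.70 to 220) and 31.8 times at 2 weeks (15.1 to 80.1), where the intervals cover counting error only. *Pln* shares 1644 exon bases with *Gm47644* and 141 with *Cep85l*, both on the other strand. *Gm47644* had an FPKM of 0.0334 or less, and *Cep85l* had 2.64 to 3.33 *in vivo* and 1.15 to 2.03 *in vitro*, and the part of these in the result for *Pln* was not tested.

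*Sln* (chr9:53850164-53854560, plus strand) lay the opposite way. Its FPKM was 0.0648 and 0.175 *in vivo* against 1.82 and 1.42 *in vitro* at 1 week. At 2 weeks it was 0.0672 and 0.343 *in vivo* against 7.46 and 8.54 *in vitro*. Between 1 and 5 fragments per library lay behind the *in vivo* values and 28 to 153 behind the *in vitro* values, and the libraries did not overlap. This gave a log2 fold change of -3.01 (SE 0.48, limma adjusted p = 0.00254) at 1 week and -4.89 (SE 0.48, adjusted p = 0.000216) at 2 weeks. At 1 week the adjusted p rose to 0.0178 without *in vivo* 1 week replicate 1, to 0.0207 without *in vitro* 1 week replicate 1 and to 0.0141 without *in vitro* 1 week replicate 2. The ratio of summed fragments, *in vitro* to *in vivo*, was 13.3 at 1 week (exact 95% interval 4.93 to 50.1) and 39.2 at 2 weeks (17.8 to 108).

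Taking both inhibitors, *Pln* made up 79.9% to 98.0% of their summed FPKM in the 4 *in vivo* libraries and 0.928% to 1.68% in the 4 *in vitro* libraries. Their sum was 0.591 and 0.870 *in vivo* and 1.85 and 1.45 *in vitro* at 1 week, and 3.37 and 2.90 *in vivo* against 7.57 and 8.62 *in vitro* at 2 weeks. Per 100 FPKM of the pump *Atp2a2*, the inhibitors amounted to 0.777 and 0.968 *in vivo* and 1.87 and 1.35 *in vitro* at 1 week, and to 3.59 and 3.16 *in vivo* and 4.63 and 5.58 *in vitro* at 2 weeks. The inhibitor that was present thus differed by place, the sum was higher *in vitro* in each week, and every 2 weeks library was above every 1 week library of either place. These ratios are descriptions without a test.

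**Figure D2:**
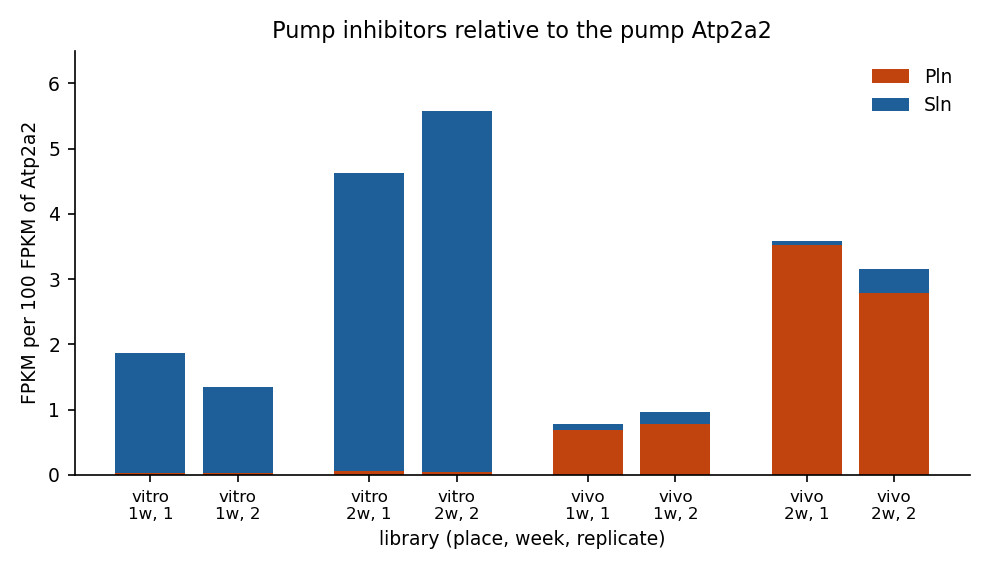
Stacked FPKM of *Pln* and *Sln* per 100 FPKM of *Atp2a2* (vertical axis) in each library (horizontal axis, by place, week and replicate). *Sln* makes up nearly the whole bar in the *in vitro* libraries and *Pln* most of it in the *in vivo* libraries, and the totals run from 0.777 to 5.58.

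*Cacna1c* (chr6:118587240-119196418, minus strand), the pore of the L-type channel, had an FPKM of 2.55 and 3.08 *in vivo* against 1.48 and 1.58 *in vitro* at 1 week, and 2.93 and 2.47 against 2.17 and 1.75 at 2 weeks. In the deposited FPKM the *in vivo* libraries were above with no overlap. The log2 fold change was 0.83 (SE 0.17, limma adjusted p = 0.00696) at 1 week, under the fold threshold, and 0.44 (SE 0.17, adjusted p = 0.0635) at 2 weeks. Over the 19 alternatives the log2 fold change at 2 weeks ran from 0.13 to 0.59. The skeletal muscle pore *Cacna1s* was listed at 0 in 7 of 8 libraries.

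*Slc8a1* (chr17:81388691-81649607, minus strand), the exchanger, was the third most abundant member in every group. Its FPKM was 23.5 and 24.1 *in vivo* against 10.8 and 12.4 *in vitro* at 1 week, and 23.0 and 16.8 against 9.61 and 9.85 at 2 weeks. The groups did not overlap at either week. Its log2 fold change was 1.04 (SE 0.14, limma adjusted p = 0.00137) at 1 week and 1.01 (SE 0.14, adjusted p = 0.00120) at 2 weeks, just past the fold threshold. Without the scaling between libraries it came to 0.69 at 1 week and to 0.68 at 2 weeks, and *Slc8a1* was then not called. The call at 1 week was also lost without *in vivo* 1 week replicate 1 or 2 (adjusted p = 0.0101 and 0.0117) or *in vitro* 1 week replicate 1 (0.0116), and that at 2 weeks without *in vivo* 2 weeks replicate 1 (log2 fold change 0.79) or *in vitro* 2 weeks replicate 1 (0.99). A pseudocount of 1 gave log2 fold changes of 0.98 for the first week and 0.95 for the later one, and no call in either. The table gives *Slc8a1* a length of 2934 bases where its exons cover 18807 bases in GENCODE vM21, while the other 9 members have equal lengths in both. Its level against other genes therefore depends on the gene model, while the length is the same for all 8 libraries.

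**Figure D3:**
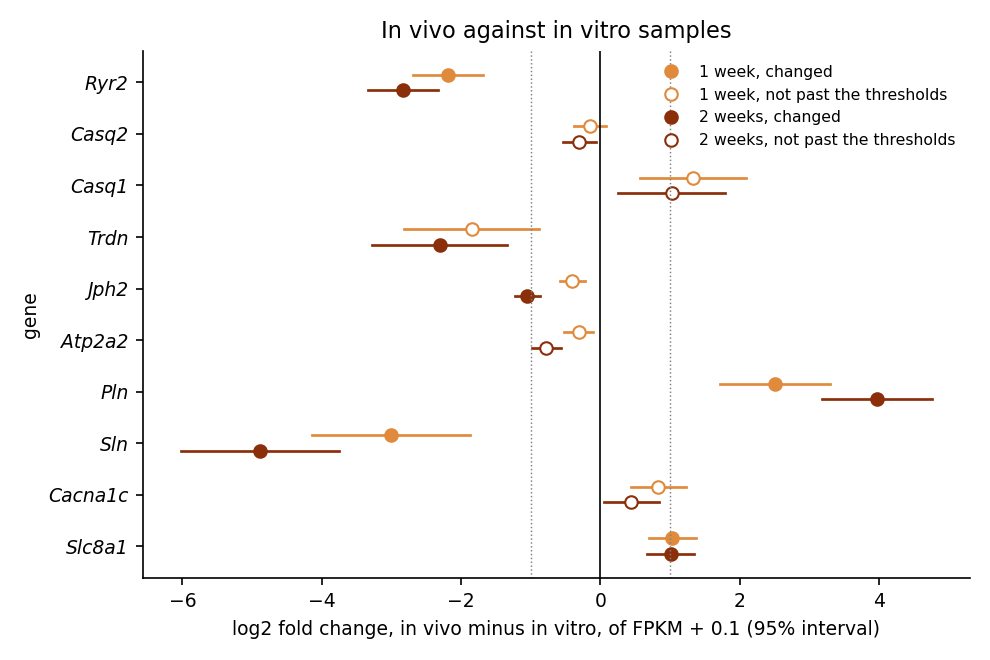
Log2 fold change, *in vivo* minus *in vitro*, of FPKM + 0.1 for the 10 genes at 1 week (orange) and 2 weeks (brown), with 95% intervals from limma. Filled points passed both thresholds and open points did not, and dotted lines mark a log2 fold change of -1 and 1. *Pln* and *Sln* lie farthest from 0, on opposite sides.

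Between 1 and 2 weeks *in vitro*, 7 of the 10 members were higher in both 2 weeks libraries than in both 1 week libraries, against 34.8% of all tested genes, and *Slc8a1* was lower in both (31.4% of tested genes). The 7 include *Pln*, on 1 fragment in each library at 1 week and 4 and 3 at 2 weeks. They also include *Trdn*, which reached the filter's 0.5 FPKM in both 2 weeks libraries and in 1 of those at 1 week. No member passed both thresholds, where 2.76% of tested genes were called higher and 1.05% lower. At an unadjusted limma p under 0.05, 4 members were higher and 0 lower. The share of all tested genes at that unadjusted p was not computed, so nothing is read from this count. By limma with Benjamini-Hochberg adjustment, the log2 fold change *in vitro* was 2.24 for *Sln* (adjusted p = 0.0169), 1.06 for *Ryr2* (0.0133), 0.70 for *Jph2* (0.00152) and 0.63 for *Atp2a2* (0.00433). The first 2 missed the adjusted p and the others the fold. *Sln* and *Ryr2* were both called with limma voom on the recovered fragments (adjusted p = 9.58e-05 and 1.29e-05), with only the 4 *in vitro* libraries in the fit (0.00222 and 0.00621), and without *in vivo* 2 weeks replicate 1 (0.00475 and 0.00767) or replicate 2 (0.00510 and 0.00705).

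Between the weeks *in vivo*, *Pln* alone was called, with a log2 fold change of 2.09 (SE 0.33, limma Benjamini-Hochberg adjusted p = 0.00975), where 1.23% of tested genes were called higher and 0.949% lower. That value was close to the threshold: over the 19 alternatives the adjusted p ran from 0.000482 to 0.0640, and the call was lost in 14 of them, including each of the 8 fits without 1 library. The log2 fold change stayed between 1.28 and 2.27. In the libraries themselves, 4 members were higher in both 2 weeks libraries than in both 1 week libraries (28.7% of tested genes) and 2 were lower (28.9%). The other 9 members gave log2 fold changes between -0.49 and 0.42 *in vivo*, none of them past the threshold. The *in vivo* difference between the weeks uses the same *in vivo* libraries as the comparisons with the dish.

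Whether the difference between heart and dish itself changed from 1 to 2 weeks was tested by an interaction contrast. No member passed it by limma or by limma voom, against 0.573% of tested genes called higher and 1.15% called lower by limma. At an unadjusted limma p under 0.05 there was 1 member with a positive and 3 with a negative estimate. The 2 shares do not apply to this looser threshold, for which the share of all tested genes was not computed, so nothing is read from this count. The largest estimates were -1.88 for *Sln* (95% interval -3.49 to -0.28, limma adjusted p = 0.131) and 1.46 for *Pln* (0.34 to 2.58, adjusted p = 0.104). *Jph2* had the lowest limma adjusted p, 0.0145, with an estimate of -0.65 (95% interval -0.90 to -0.40). That interval, which is not adjusted for the number of genes, lay below 0 and short of a 2-fold change. *Trdn* had an estimate of -0.46 (-1.83 to 0.91, limma adjusted p = 0.659). A call at 2 weeks alone, as for *Trdn* and *Jph2*, thus does not by itself show that the response to the place differed between the weeks.

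In order of level, *Atp2a2*, *Jph2* and *Slc8a1* led in all 4 groups. *Casq2* came next in 3 groups, and *in vitro* at 2 weeks it shared that place with *Sln*, whose libraries overlapped its own. *Pln* ranked 5 *in vivo* at 2 weeks (mean 2.93, overlapping *Cacna1c*) and last *in vitro* at both weeks. *Sln* ranked 9 *in vivo* at both weeks, with libraries that overlapped those of *Trdn* at 2 weeks. These ranks use FPKM means of 2 libraries, and that of *Slc8a1* uses the table's short length.

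Among 13105 protein-coding genes, those whose log2 profile over the 8 libraries was nearest to a member, by the root mean square difference after centring, were named as a description. For *Sln* they were *Prl7b1* (0.39), *Tnnc1* (0.41) and *Rab3b* (0.43), and *Tnnc1*, cardiac troponin C, had an FPKM of 0.656 to 2.06 *in vivo* and 14.1 to 70.5 *in vitro*. For *Ryr2* they were *Inka2* (0.17), *Slco2a1* (0.19) and *Chchd10* (0.20). For *Pln* they were *F10* (0.22), *Cpxm2* (0.23) and *Ackr2* (0.27), for *Trdn* they were *Itga3* (0.14), *Acaa2* (0.17) and *Igfbp3* (0.18), and for *Jph2* they were *Gpcpd1*, *Pltp* and *Shb*. For *Atp2a2*, *Casq2*, *Cacna1c*, *Slc8a1* and *Casq1* the nearest were *Utp14b*, *Psmd12*, *Man2a2*, *Klf6* and *Zfp54*.

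RefSeq promoter sequences (GRCm38.p6) were found for 7 of 10 members. The 250 bases before the start were searched on both strands for motifs bound by the MEF2, GATA and T-box families, for the CArG box and for the GAS motif of interferon signalling, and none was searched for *Sall4*. The GATA motif AGATAA occurs in 9.99% of 32851 mouse promoters of this length and was found before *Pln* and *Slc8a1*, although the start searched for *Slc8a1* lies 88780 bases from the gene start in the deposited table. The MEF2 form searched, CTA and TAG with any 4 bases between them (3.20% of promoters), was in none of the 7. The same held for the T-box motif AGGTGT (11.8%) and the CArG box (1.47%). The GAS motif TTCNNNGAA (7.02%) was before 1 of the starts of *Cacna1c*, 438444 bases from its gene start in the table. Other spellings of these motifs were not searched, so an absence covers only the letters searched. The stretch before *Casq2* holds TTATTTTTAG, which differs from the MEF2 form searched in its first base. The stretch before *Pln*, which was called higher in the heart at both weeks, lies at chr10:53337436-53337685 on the plus strand. It is shown with the match to AGATAA, read on the opposite strand, in capitals, at 183 to 178 bases before the start. TGATAA, which also occurs in this stretch, was not among the letters searched and is left in lower case.
Pln upstream: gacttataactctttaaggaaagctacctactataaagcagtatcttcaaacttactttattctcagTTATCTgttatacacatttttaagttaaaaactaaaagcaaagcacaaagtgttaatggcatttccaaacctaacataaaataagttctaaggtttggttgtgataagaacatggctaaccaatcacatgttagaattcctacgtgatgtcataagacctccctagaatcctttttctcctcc
A match describes the letters of this window and is not a binding site. The factors' own levels, in which fragments from the viral and the mouse copies cannot be told apart, were lower *in vivo* for *Sall4* at both weeks (log2 fold change -1.11 and -1.65) and for *Myocd* at 2 weeks (-1.22), while *Mef2c* (-0.04 and 0.11), *Tbx5* (-0.57 and -0.53) and *Gata4* (-0.56 and -0.86) were not called.

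Of 73 other calcium handling genes listed by role, 72 were in the table under these symbols and 58 passed the filter. At 1 week 5 of the 58 were called higher *in vivo* and 6 lower, where 7.79% and 5.07% of all tested genes were called. At 2 weeks 7 were higher and 5 lower, against 9.02% and 8.05% of all tested genes. The median log2 fold change of the list was -0.13 and -0.01. Nothing is read from these counts about the list as a whole. Among release channels, the inositol trisphosphate receptor *Itpr2* was higher *in vivo* at both weeks (log2 fold change 1.74 and 1.88, limma adjusted p = 6.68e-05 and 3.64e-05), with a mean FPKM of 6.36 against 1.84 and of 5.64 against 1.45, while *Itpr1* and *Itpr3* were not called. *Itpr2* was thus above *Ryr2* in FPKM in every *in vivo* library.

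Inside the SR, sarcalumenin (*Srl*), a calcium-binding protein of the muscle SR, was lower *in vivo* at both weeks (-1.61 and -3.16), with a mean FPKM of 0.382 *in vivo* against 1.35 *in vitro* at 1 week and 0.673 against 6.83 at 2 weeks. Calreticulin (*Calr*), the calcium-binding chaperone of the endoplasmic reticulum, was higher *in vivo* at 2 weeks (1.26) and at 0.96 did not reach the fold at 1 week. The pump *Atp2a3* was lower *in vivo* at 1 week (-1.05) and at 0.99 was not called at 2 weeks. The histidine-rich calcium-binding protein *Hrc* was not called in either week. At the junction, *Jph1* was lower *in vivo* at both weeks (-1.58 and -1.97), as *Jph2* was at 2 weeks, and caveolin 3 (*Cav3*), the caveolin of muscle, was higher at both (2.05 and 1.38). *Jph4* was not called at either week. At 1 week *Jsrp1* was called higher *in vivo* (1.77, limma adjusted p = 0.00988) and *Tmem38a* lower (-1.04). Neither was called at 2 weeks (-0.32 and -0.29).

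At the surface membrane, the T-type channel pore *Cacna1g* was higher *in vivo* at both weeks (1.72 and 2.80, limma adjusted p = 0.000302 and 2.64e-05), with a mean FPKM of 3.25 against 0.919 at 1 week and 6.47 against 0.848 at 2 weeks. The subunits *Cacnb1* (0.63 and 0.90) and *Cacna2d1* (0.08 and 0.86) were not called. Of the small GTPases that restrain the L-type channel, *Gem* was higher *in vivo* at 1 week (2.76) and not called at 2 weeks (0.94), *Rem1* was lower at both (-2.73 and -1.77), and *Rrad* was not called (-0.25 and -0.57). *Gem* was the 1 listed gene past the interaction contrast, and between the weeks *in vitro* *Gem*, *Rrad*, *Hrc* and *Srl* were called higher. The surface calcium pump *Atp2b4* was higher *in vivo* at 2 weeks (1.67), and *Atp2b1* and *Slc8a2* were not called.

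Among regulators of the channel and the pump, *S100a1*, a calcium sensor of heart muscle, was lower *in vivo* at both weeks (-1.36 and -2.12), with a mean FPKM of 38.4 against 98.4 at 1 week and 38.3 against 166.9 at 2 weeks. The phosphatase subunit *Ppp1r3a* had an FPKM of 1.51 and 1.20 *in vitro* at 2 weeks and of 0.0127 or less *in vivo* (-3.77), and passed the filter only through those 2 *in vitro* libraries. The kinase *Camk2a* was higher *in vivo* at 2 weeks (2.24), although the 2 *in vivo* libraries of *Camk2a* stood apart at an FPKM of 6.30 and 2.43. None of the 5 tested genes of store-operated entry was called, with *Stim1*, *Orai1* and *Orai2* among them, and of the 8 mitochondrial genes *Mcub*, the subunit that restrains the uniporter, was higher *in vivo* at 2 weeks (1.03).

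**Figure D4:**
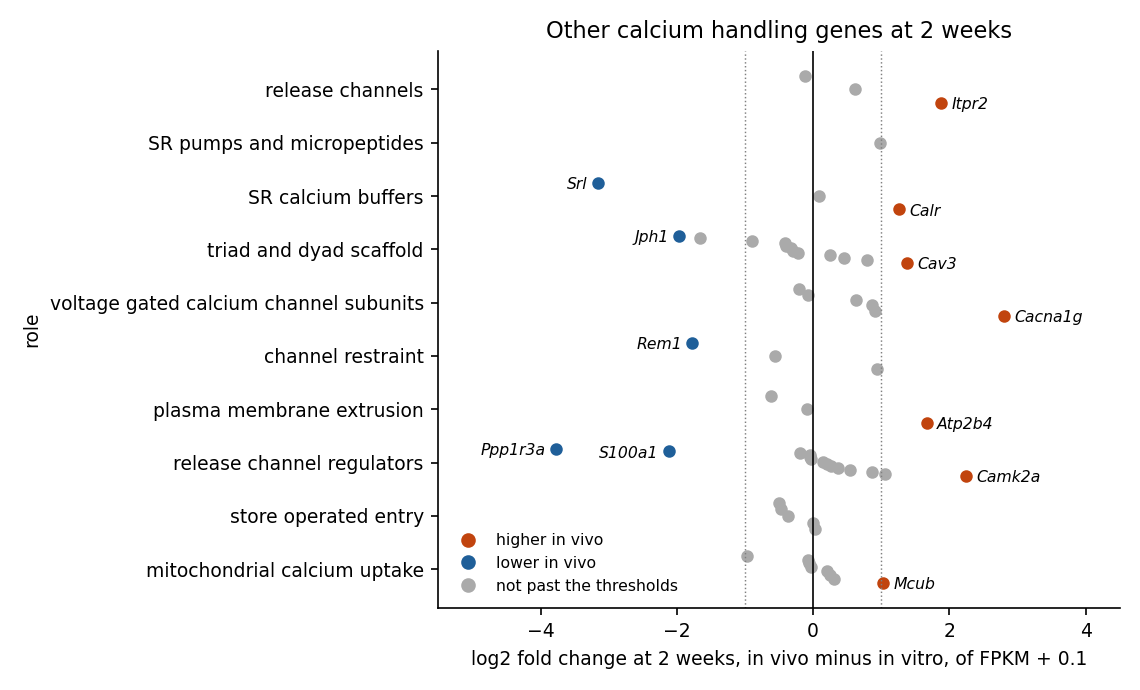
Log2 fold change at 2 weeks, *in vivo* minus *in vitro*, of FPKM + 0.1 for the 58 other calcium handling genes tested, by role. Red and blue points passed both thresholds and are named, 7 higher and 5 lower *in vivo*, and grey points did not.

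Cell type markers moved with these comparisons. The summed FPKM of 17 cardiomyocyte markers was 18.7 to 51.0 *in vivo* and 188.7 to 1328 *in vitro*, with 8 to 10 of them at an FPKM of at least 0.5 *in vivo* and 10 to 13 *in vitro*. Of the 13 tested, 8 were called lower *in vivo* at 1 week and 5 were not called, where 5.07% of all tested genes were lower. At 2 weeks 12 were called lower, against 8.05% of all tested genes. Of the 13, *Actn2*, *Myh6* and *Myl3* passed the filter only through *in vitro* libraries, so the filter favoured a lower value *in vivo* for them. *Myh6* was called lower at both weeks, and *Actn2* and *Myl3* at 2 weeks alone. The counts at both weeks are therefore a description. *Myl2*, the ventricular myosin light chain, lay the other way at 2 weeks, at 0.636 and 0.789 *in vivo* against 0.0742 and 0.0377, and passed the filter only through these 2 *in vivo* libraries. *Ckm* and *Ckmt2*, creatine kinases of mature muscle, were at an FPKM of 0.177 or less in every library. All 10 fibroblast markers were at 0.5 or more in every library, with a sum of 10246 to 13336 *in vivo* and 2174 to 3305 *in vitro*. At each week the collagens *Col1a1*, *Col1a2* and *Col3a1* with *Postn*, *Lum* and *Dcn* were called higher *in vivo*, and these 6 made up 92.1% to 98.7% of the sum, while *Pdgfra*, *Pdgfrb*, *Tcf21* and *Thy1* were not called. The 8 macrophage markers were also present in all libraries, with a sum of 1167 to 1821 *in vivo* and 3407 to 4524 *in vitro*, of which *Lyz2* made up 79.8% to 90.0%. At 1 week *Lyz2* alone of them was called lower *in vivo* (-1.45), *Fcgr1* was called higher (2.61) and 6 were not called, and at 2 weeks *Lyz2*, *Adgre1*, *Cd68* and *Mrc1* were called lower and 4 were not called. The 14 skeletal muscle markers summed to 4.06 to 7.66 and 18.0 to 91.3, with *Myod1*, *Myog* and *Mymk* listed at 0 in the *in vitro* libraries. The 6 smooth muscle markers summed to 503 to 686 and 864 to 997, and the endothelial markers to 57.7 to 72.0 and 18.97 to 44.1. *Acta2* made up most of the smooth muscle sum and was not called at either week. Of that list only *Myh11* at 1 week and *Des* at 2 weeks were called, both lower *in vivo*. All endothelial markers but *Tek* were called higher *in vivo* at 1 week. At 2 weeks only *Pecam1* and *Vwf* were, and *Vwf* passed the filter only through *in vivo* libraries. The part of these differences in the results for *Ryr2*, *Pln*, *Sln* and the other members was not tested.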

How the data were processed

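RNA from sorted eGFP+ MICFs was made into 8 mRNA libraries with a SMARTer kit. The authors deposited 1 table of FPKM per gene. Per the submitters' processing notes, CASAVA, HISAT2 2.0.5 and build mm10 were used, and the counting tool is not given in the sources used here. Samples were matched to columns by title, and 0 columns were left over. Multiplied by gene length, 100% of the FPKM were whole multiples of 1 step (within 0.01 fragments), so fragments were recovered, 12304242 to 14546904 per library. The library size behind the FPKM was 0.863 to 0.915 times these totals *in vivo* and 1.09 to 1.15 times *in vitro*, so the FPKM contain a scaling between libraries. Of 54495 gene identifiers shared with GENCODE vM21 (GRCm38), 98.3% had the same start and end, 9 of the 10 members among them.

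Log2(FPKM + 0.1) was fitted by limma 3.58.1 (R 4.3.3) with 4 group means and an intensity trend, in place of the study's test, which models raw counts, with Benjamini-Hochberg adjustment over 15708 genes. The study's methods state a P under 0.01 without saying whether it was adjusted; the adjusted p was used here, with the 2-fold change. Ratios of low fragment sums have exact conditional intervals. Replicates differed by more than counting error (chi-square per gene 4.83 to 10.6). Members, gene lists and markers were chosen with earlier results of these data known. Named were all members, the delivered factors and the 3 nearest profiles. At most 3 tested genes per role were named as well, those with the largest absolute change at 2 weeks. Beyond that rule, genes of a member's family, called markers and some genes behind small counts were named after their values were seen. So were the called genes among the other calcium handling genes. Alternatives were other pseudocounts (1, 0.01), filters, scalings, no trend, a replicate block, the 4 compared libraries alone, limma voom, an adjusted p of 0.05 and each library left out. Python 3.11.15, numpy 2.4.6, pandas 2.3.3, scipy 1.17.1 and matplotlib 3.10.9 were used.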

Additional observations from a re-analysis of the deposited data

How the results depend on the processing

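Over 19 settings, 930 values of the members were recomputed: 859 kept their direction and their side of the thresholds, 23 passed newly, 35 no longer passed and 13 changed sign. No member changed sign between heart and dish at either week. Of the members higher *in vivo*, 2 at 1 week and 2 at 2 weeks, a pseudocount of 1 left 0 and 1 (it also left *Trdn* uncalled at 2 weeks, at -0.78), FPKM without the scaling left 1 and 1, and the 4 compared libraries alone left 1 at 1 week. Leaving out 1 library gave 0 to 2 and 1 to 2 higher, and 1 to 3 and 3 to 4 lower. Of the 0 members higher over time *in vitro*, a pseudocount of 1 gave 1, and limma voom, an adjusted p of 0.05 and the 4 libraries alone gave 2 each (0 to 2 without 1 library). The 1 member higher over time *in vivo*, *Pln*, was 0 with a pseudocount of 0.01, no filter, a filter of FPKM 1, no scaling, the 4 libraries alone, and each library left out. For the interaction, a pseudocount of 1 gave 1 lower member, *Sln* (-1.68). The causes were not tested.

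Changes of sign concerned values near 0 that passed no threshold. Leaving out 1 library at a time, the log2 fold change over time *in vitro* ran from -0.59 to 0.23 for *Casq1*. Over time *in vivo* it ran from -0.35 to 1.06 for *Sln*, from -0.18 to 0.013 for *Casq2*, from -0.19 to 0.074 for *Cacna1c* and from -0.048 to 0.14 for *Jph2* (-0.0018 with quantile normalization). The interaction ran from -0.71 to 0.11 for *Casq1* and from -0.25 to 0.20 for *Slc8a1* (0.0029 with quantile normalization), and *Trdn* became 0.063 with quantile normalization.

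Replicate numbers did not pair the samples: deviations of same-numbered libraries correlated at -0.048 to -0.011 over genes. With the replicate block, *Pln* over time *in vivo* had an adjusted p of 0.0229 by limma, so 0 members were called there, and no other call of a member changed. *Trdn* had no value under the filter of FPKM 1.

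Without the scaling the median over all genes shifted to -0.34 on the log2 scale at 1 week and to -0.33 at 2 weeks. The share of calls that lay higher *in vivo* went from 60.6% to 36.7% (906 higher, 1562 lower, against 1224 and 796) and from 52.8% to 32.9% (1029 and 2097, against 1417 and 1265). Calls over all genes also moved by over 1.5 times elsewhere. At 1 week a pseudocount of 1 left 485 lower, and leaving out an *in vitro* 1 week replicate 525 and 486. Over time *in vitro* 434 higher and 165 lower became 167 to 669 and 54 to 334, and *in vivo* 193 and 149 became 53 to 406 and 4 to 321. The interaction's 90 higher and 181 lower became 1 to 216 and 1 to 461, with 11 and 16 under the block. With 2 libraries a group and 1 to 5 fragments behind *Pln* *in vitro* and *Sln* *in vivo*, the depth limits the size of their folds.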
